A study of Homo sapiens with 4 samples.

Results

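A small set of H3K4me3 domains in HCT116 cells each held more than 1 called site of TAF3 binding. These are the 238 of 14298 filtered H3K4me3 peaks (1.66%) that shared at least 1 base with 2 or more filtered TAF3 peaks, and they hold 482 TAF3 peaks in all, 232 domains with 2 and 6 with 3. Another 11323 H3K4me3 peaks held exactly 1 TAF3 peak and 2737 held none. The domains were chosen by the called TAF3 and H3K4me3 peaks. The values of these antibodies are therefore descriptions, also where they are set beside those of other peaks. RNA polymerase II (RNAPII) was not used for the choice, and the main comparisons rest on it.

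The data are chromatin immunoprecipitation with sequencing (ChIP-seq) of HCT116, an established human colorectal carcinoma line, at passages 15 to 18. There was 1 library each for TAF3, H3K4me3, RNAPII and input DNA, and no group differed in genotype or treatment. The cells grew in DMEM on uncoated plates, and for the 3 antibodies monolayers were crosslinked with 1% formaldehyde for 10 min. TAF3 was precipitated with an antiserum against residues 290 to 389 of the human protein, and catalogue antibodies were used for H3K4me3 and RNAPII. After removal of duplicates the libraries held 12560129 (H3K4me3) to 19185386 (input) tags, and the redundant share was highest for H3K4me3, at 40.2%. With 1 library per antibody there is no replicate error, and all intervals below are 95% intervals that cover only the counting of regions.

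TAF3 is a subunit of TFIID, the general transcription factor that recognises core promoters and starts assembly of the preinitiation complex. Its PHD finger binds histone H3 trimethylated at lysine 4, the mark that flanks active start sites. A stretch of marked chromatin can carry more than 1 start site, as at divergent gene pairs, alternative promoters and gene clusters, and RNAPII gathers near each start site in use. No annotation of the build used here (hg19) was analysed, so the domains are named by position and genes, promoter sequence and cell type markers are not described.

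The domains with several TAF3 peaks were broad, but at similar widths they were not more strongly marked than peaks with 1 TAF3 peak. Their widths ran from 1038 to 12312 bp with a median of 3734 bp, against 2406 bp for H3K4me3 peaks with 1 TAF3 peak. The share of H3K4me3 peaks with several TAF3 peaks rose with width, from 0.221% of the 5430 peaks under 2 kb and 3.84% of the 2137 peaks of 3 to 4 kb to 40.4% of the 57 peaks over 6 kb. A wider peak has more room for a second TAF3 peak, so this rise is in part built into the definition. Fold enrichment of H3K4me3 over input, as the authors' peak caller gave it, had a median of 152 in the domains (quartiles 113 and 190) and 141 in peaks with 1 TAF3 peak. To narrow the difference in width, both sets were limited to 3061 to 4791 bp, the interquartile range of the domains. Within that window 118 domains and 2091 peaks with 1 TAF3 peak remained, with median widths that still differed, at 3734 bp (interval 3547 to 3905) and 3417 bp (3399 to 3444). Their median H3K4me3 enrichment was 158-fold in either set. H3K4me3 tags per bp were lower in the domains of the window, with a median of 0.297 against 0.384. They were also lower without a width limit, at 0.286 against 0.328.

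**Figure D1:**
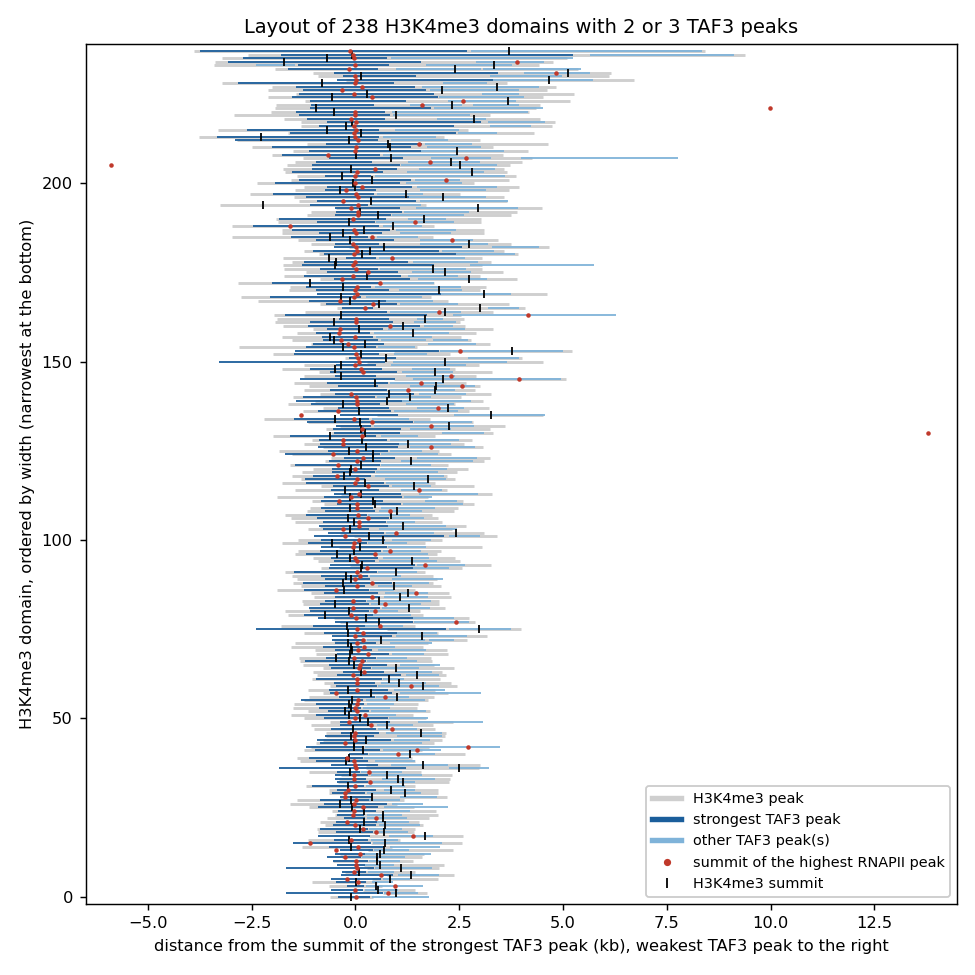
Each of the 238 domains is a row, narrowest at the bottom and the weakest TAF3 peak to the right, with the H3K4me3 peak in grey, the strongest TAF3 peak in dark blue, other TAF3 peaks in light blue, the H3K4me3 summit as a black tick and the summit of the highest RNAPII peak as a red dot. Distance in kb is from the strongest TAF3 summit, and most red dots lie near zero; in 175 domains some RNAPII summit lay within 200 bp of it.

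Most neighbouring TAF3 peaks of a domain were separated by a short stretch without a call. The 244 adjacent pairs had a median gap between peak edges of 83 bp (quartiles 37 and 299 bp), and the gap was under 100 bp in 138 pairs and 500 bp or more in 42. The summits lay farther apart, at a median of 1435 bp (interval 1359 to 1603 bp), with a range of 371 to 8103 bp. Summits were under 1000 bp apart in 68 pairs. Of 158 adjacent pairs with a gap under 100 bp in the whole TAF3 list, 138 lay in these domains. How many domains are found depends on how such gaps are read. With TAF3 peaks under 100 bp apart joined, 104 domains were left, and with those under 500 bp apart joined, 41 were left, with a median summit distance of 2455 bp.

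**Figure D2:**
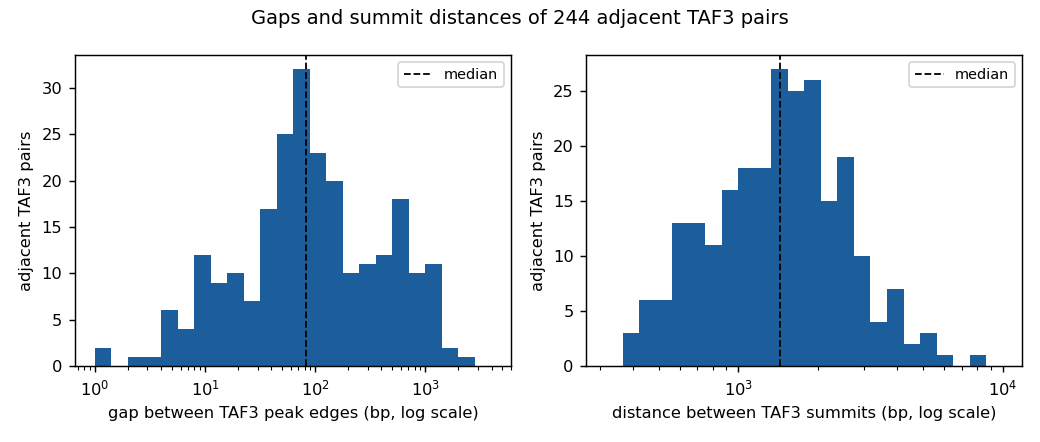
Histograms of the gap between peak edges (left) and of the distance between summits (right) for 244 adjacent TAF3 pairs, both in bp on a log scale. Dashed lines mark the medians of 83 bp and 1435 bp.

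The widest domains show how far apart TAF3 sites in 1 marked stretch can lie. The domain at chr7:27202470-27214448 (11979 bp, 201-fold H3K4me3) had TAF3 summits at 27205056 (102-fold, 1370 tags) and 27213159 (34.6-fold, 364 tags), 8103 bp apart. Separate RNAPII peaks of 164-fold and 83.3-fold covered these sites, with summits at 27205047 and 27212761. The widest domain, chr7:5457876-5470187, had TAF3 peaks of 45.2-fold and 78.8-fold with summits 5657 bp apart and a gap of only 99 bp. A single RNAPII peak of 13810 bp and 164-fold covered both. At chr7:23506633-23514775 the TAF3 peaks were nearly equal, 36.7-fold and 32.1-fold, and lay 3841 bp apart with a gap of 1323 bp. RNAPII summits were found 22 bp and 21 bp from the respective TAF3 summits, and RNAPII was higher at the slightly weaker TAF3 site (119-fold against 83.5-fold). At chr11:69450850-69459159 (232-fold H3K4me3) TAF3 peaks of 46.5-fold and 121-fold lay 1938 bp apart under an RNAPII peak of 22774 bp and 302-fold, the highest RNAPII enrichment of any domain. In these 4 domains the TAF3 sites thus shared an RNAPII peak in 2 cases and had their own in 2.

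At the other end, the 5 closest pairs had summits 371 to 441 bp apart and gaps of 9 to 78 bp. The closest was at chr12:2984938-2987924, with TAF3 peaks of 22.4-fold at 2986041 and 37.0-fold at 2986412. All 5 were covered by 1 RNAPII peak each. The narrowest domain, chr22:29278471-29279508, spanned 1038 bp with 78.3-fold H3K4me3 and 118 tags. Its TAF3 peaks of 47.8-fold and 23.3-fold had summits at 29279082 and 29279671, so the latter summit lay outside the H3K4me3 peak.

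The 6 domains with 3 TAF3 peaks differed in how RNAPII was arranged. At chr3:104161512-104164701 (96.9-fold H3K4me3, 412 tags) each TAF3 peak had its own RNAPII peak. TAF3 was 27.1-, 16.8- and 33.6-fold at 104162181, 104162886 and 104164193, and RNAPII was 74.8-, 45.4- and 119-fold at 104162217, 104162938 and 104164258. The order of the sites by TAF3 was thus the order by RNAPII. At chr5:162929854-162934158 (190-fold H3K4me3) TAF3 peaks of 46.52-, 21.97- and 54.28-fold lay under 1 RNAPII peak of 234-fold, whose summit at 162932667 was nearest the strongest of them, at 162932643. At chr17:36902606-36910428 TAF3 was 28.2-, 65.3- and 13.8-fold under 1 RNAPII peak of 179-fold, and the middle and strongest TAF3 summit had the same position as the RNAPII summit, 36906013. The remaining 3 each had 2 RNAPII peaks. At chr8:145686229-145693515 TAF3 was 58.8-, 39.5- and 18.9-fold with RNAPII peaks of 96.1- and 48.4-fold. At chr7:130790171-130796533 TAF3 was low at all sites, 14.1-, 11.3- and 22.6-fold, under RNAPII peaks of 50.39- and 37.97-fold. The higher RNAPII peak overlapped the first and second sites and the lower one the strongest site, so here the order was not shared. At chr11:65336191-65341696 TAF3 was 45.9-, 21.3- and 13.9-fold, and the weakest of these peaks extended 3784 bp, mostly beyond the H3K4me3 peak. RNAPII in this domain was 92.7-fold over the strongest site and 103-fold over the other sites, so the order was not shared here either.

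TAF3 peaks within a domain were usually unequal. The strongest peak of a domain had a median fold enrichment of 42.0 (quartiles 30.3 and 62.2) and the weakest 22.4 (quartiles 17.0 and 31.2), while a TAF3 peak alone in its H3K4me3 peak had 36.7. The strongest peak is by definition the highest of its domain. With both sets limited to the width window, it was not above the single peak. The medians there were 43.2 (interval 37.2 to 48.4) for the strongest, 21.1 for the weakest and 47.55 (45.99 to 48.7) for the single peak. A ratio of weakest to strongest has to be below or at 1; its median was 0.586 (interval 0.533 to 0.633), it was under 0.5 in 88 domains, and it was under 0.25 in 19. In 147 domains the strongest peak reached the median of all TAF3 peaks, 36.1-fold, and in 42 the weakest did too. Within the width window the TAF3 tags of all peaks in a domain summed to a median of 288, compared with 343 for the single peak.

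**Figure D3:**
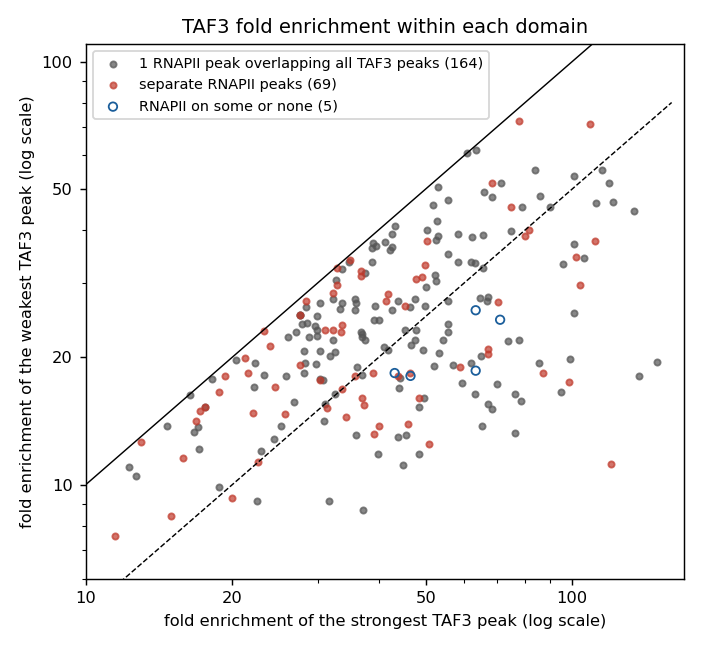
Fold enrichment of the weakest against the strongest TAF3 peak in each of 238 domains, on log axes, with 1 RNAPII peak overlapping all TAF3 peaks in grey (164), separate RNAPII peaks in red (69) and RNAPII on some or none as open circles (5). The solid line marks equality and the dashed line a ratio of 0.5; 88 domains lie under the dashed line.

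The most equal domain was chr2:109149184-109152192, where TAF3 peaks at 109150297 and 109151018 both had 60.7-fold enrichment, with 136 and 110 tags. At chr2:3380256-3384856 TAF3 was 32.8- and 32.4-fold at sites 1708 bp apart, and the separate RNAPII peaks were equally alike, at 97.0- and 95.5-fold. At chr1:198125410-198129267 both TAF3 sites were strong, 77.5- and 72.4-fold at a distance of 2220 bp, with RNAPII peaks of 207- and 210-fold. The weaker of these TAF3 values was the highest for a second site of any domain. It was followed by 71.0-fold at chr15:93442706-93449696, where the stronger site had 109-fold TAF3 and 250-fold RNAPII and the weaker site 123-fold RNAPII. At chr12:122237650-122243915 TAF3 was 62.0- and 63.3-fold at sites 2971 bp apart, under an RNAPII peak of 14420 bp whose summit lay 7516 bp from the nearer of them and outside the H3K4me3 peak. At chr6:145243522-145248355 TAF3 was 23.1- and 23.3-fold. The RNAPII peak overlapping the first site had 84.2-fold enrichment and that overlapping the second 48.1-fold. The summit of the latter RNAPII peak, at 145246630, lay away from the TAF3 summit at 145245388.

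The most unequal domain was chr18:60188725-60194765. TAF3 was 120-fold (577 tags) at 60190036 and 11.2-fold (73 tags) at 60193922, while RNAPII was 183-fold at the first and 83.9-fold at the second. TAF3 thus differed far more between these sites than RNAPII. At chr19:47287152-47291969 TAF3 was 19.5-fold at 47288068 and 150-fold at 47291814, the highest TAF3 value of all the domains, under 1 RNAPII peak of 261-fold with its summit 9 bp from the stronger site. At chr9:21554406-21561088 it was 18.1-fold at 21556121 and 137-fold at 21559661, again under 1 RNAPII peak (246-fold). At chr6:167410928-167414215 the unequal sites were close together, 13.3-fold and 76.4-fold with summits 507 bp apart, and at chr19:12899340-12905215 they were 16.5-fold and 94.9-fold at 1359 bp. In the 4 of these 5 domains that had 1 RNAPII peak, its summit lay nearest the stronger site, at 9 to 64 bp.

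The H3K4me3 summit lay between TAF3 sites about as often as the share of the domain between them. It was found between the outermost TAF3 summits in 88 of 238 domains (37.0%, interval 31.1 to 43.3%), and that stretch made up a mean of 39.9% of the domain. The share followed the length of the stretch, at 11 of 66 domains with outer summits under 1000 bp apart (mean length share 23.5%) and 38 of 69 with 2000 bp or more (57.0%). The summit was nearer the strongest than the weakest TAF3 site in 147 domains (61.8%, interval 55.5 to 67.7%), at median distances of 511 and 982 bp. In the domain of highest H3K4me3 enrichment, chr19:48110798-48114202 (275-fold), the mark peaked at 48111752, 127 bp from the stronger TAF3 site at 48111625 (46.5-fold) and far from the weaker at 48113562 (18.1-fold). With the full TAF3 list, which adds peaks under the authors' filter, the share between TAF3 summits was 53.01% of 1013 domains. The length share of those domains was not computed, so that value cannot be set against it. The next highest H3K4me3 enrichments, 251- to 263-fold, were found in 4 domains whose TAF3 peaks lay 47 to 73 bp apart under 1 RNAPII peak each. At chr20:56883350-56886338 (263-fold) TAF3 was 33.2- and 95.6-fold, and at chr2:174826732-174831288 (252-fold) it was 47.8- and 68.5-fold.

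RNAPII covered nearly every TAF3 site of the domains. The strongest TAF3 peak overlapped an RNAPII peak in 237 of 238 domains (99.6%) and the weakest in 233 (97.9%, interval 95.2 to 99.1%), against 99.5% of all TAF3 peaks. The exception, chr8:25314396-25318131 (221-fold H3K4me3, with TAF3 18.4- and 43.2-fold, 16 bp apart), had no filtered RNAPII peak. The same held for 37 of 11323 H3K4me3 peaks with 1 TAF3 peak (0.327%). Among all H3K4me3 peaks, which include those without TAF3, it held for 5.02%. In this exception the full list held an RNAPII peak of 94.1-fold and 353 tags. It missed the authors' filter with a false discovery rate of 8.7%. In 4 further domains RNAPII was called at the stronger TAF3 site only. They were chr7:64498588-64500276, chr19:14315064-14319117, chr19:48110798-48114202 and chr22:45557735-45561585, where TAF3 without RNAPII was 25.9-, 18.6-, 18.1- and 24.6-fold and the gap to the stronger TAF3 peak was 5 to 60 bp.

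Domains with several TAF3 peaks had several RNAPII peaks more often than H3K4me3 peaks with 1. Of the 238 domains, 83 held 2 or more RNAPII peaks (34.9%, interval 29.1 to 41.1%), compared with 3.79% of peaks with 1 TAF3 peak and 4.06% of all 14298 H3K4me3 peaks. In the width window it was 46 of 118 domains (39.0%) and 180 of 2091 peaks (8.61%), which differ by 30.4 percentage points (interval 21.96 to 39.5). The difference was positive in each width class, from 11.7 points at 5 to 6 kb to 30.2 points at 4 to 5 kb, but its interval included zero at 5 to 6 kb (-7.65 to 34.9) and over 6 kb (-0.54 to 46.5). The size depended on how peaks were delimited. It was 16.7 points when RNAPII peaks under 100 bp apart were joined, 49.7 when TAF3 peaks under 500 bp apart were joined and 19.8 with the full RNAPII list. It was 16.9 with the full TAF3 list and 6.52 (interval -4.61 to 27.0) with the upper 50% of TAF3 peaks, which left 44 domains.

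**Figure D4:**
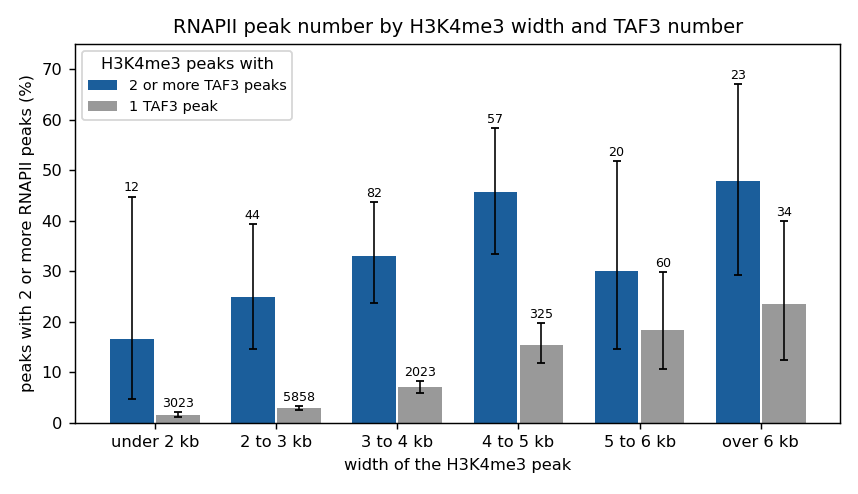
Share of H3K4me3 peaks with 2 or more RNAPII peaks (percent), by width of the H3K4me3 peak, for peaks with 2 or more TAF3 peaks (blue) and with 1 (grey). Bars are shares, error bars 95% Wilson intervals and the numbers over them count the peaks; the blue bar is the higher in each class, with overlapping intervals at 5 to 6 kb and over 6 kb.

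The RNAPII peaks of a domain together spanned a longer stretch without being stronger. In the width window the highest RNAPII peak had a median of 123-fold (interval 109 to 131) in the domains and 124-fold (122 to 127) with 1 TAF3 peak, and the RNAPII tags summed to 669 (613 to 748) and 667 (650 to 680). The highest RNAPII peak was not wider, with medians of 2550 bp (2265 to 3044) and 2625 bp (2571 to 2678). The stretch from the first to the last base of overlapping RNAPII peaks was longer, with medians of 3423 bp (3251 to 3752) and 2738 bp (2676 to 2816). This stretch includes the gaps between RNAPII peaks, and domains more often had several of these. Relative to the H3K4me3 width the stretch was 0.906 and 0.782. RNAPII tags per kb of that stretch were correspondingly lower, 199 (182 to 208) against 239 (235 to 243). The tags are those of called peaks only, so gaps in the stretch lower this value.

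In most domains 1 RNAPII peak overlapped all TAF3 peaks. This held, at 1 shared base or more, for 164 of 238 domains (68.9%, interval 62.8 to 74.4%), while 69 had separate RNAPII peaks (29.0%, interval 23.6 to 35.1%). In 14 of the 164 the RNAPII peak missed a TAF3 summit, so that 150 domains (63.0%, interval 56.7 to 68.9%) had all TAF3 summits inside 1 RNAPII peak. Counted by adjacent pair, 169 of 244 were joined by 1 RNAPII peak (69.3%, interval 63.2 to 74.7%). Joining was common at short TAF3 gaps and less so at long ones, with 112 of 138 pairs (81.2%) under 100 bp, 40 of 64 (62.5%) from 100 bp to under 500 bp and 17 of 42 (40.5%) at 500 bp or more. An RNAPII peak that joins a pair has to span the gap, so this fall is in part built in. The median summit distance also rose across these classes, from 1094 to 1569 and 2420 bp. The intervals of the first and the last class, 73.8 to 86.8% and 27.0 to 55.5%, did not overlap. Counting only pairs with both TAF3 summits inside 1 RNAPII peak, the shares were 74.6%, 54.7% and 40.5%, and those of the first and last class again had intervals that did not overlap (66.8 to 81.2% and 27.0 to 55.5%). An RNAPII peak over all TAF3 summits had a median width of 3705 bp. Among the 70 pairs with separate RNAPII peaks the RNAPII gap was short as well, at a median of 183 bp, and 18 pairs had both gaps under 100 bp whereas 13 had both at 500 bp or more.

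Domains with 3 RNAPII peaks numbered 8, and 1 of them is the domain on chromosome 3 described above. At chr9:98267530-98274712 the outer RNAPII peaks (77.5- and 96.2-fold) had their summits 38 and 140 bp from TAF3 sites of 31.0- and 23.3-fold, which lay 4730 bp apart. A weaker RNAPII peak of 30.7-fold had its summit at 98271758, within the end of the first TAF3 peak, which spanned 98268048 to 98271991. At chr15:93442706-93449696 a weak RNAPII peak of 18.8-fold (47 tags) at 93446190 lay in the 1798 bp between the TAF3 peaks. At chr15:85173603-85177907 RNAPII was 20.3-, 122- and 25.2-fold over TAF3 sites of 27.6- and 19.2-fold, 2387 bp apart. In 4 of the 8 domains, 3 on chromosome 19 and 1 on X, the last RNAPII summit lay beyond the H3K4me3 peak. At chr19:45905212-45911323 RNAPII was 52.6-, 187- and 36.1-fold, and the first 2 of these peaks had summits 68 and 42 bp from the TAF3 summits (16.4- and 76.2-fold), while the middle one also overlapped the end of the first TAF3 peak. At chr19:1239476-1243498 RNAPII of 47.9- and 106-fold lay at TAF3 sites of 15.5- and 37.3-fold, with 30.9-fold at 1246076.

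The highest RNAPII peak of a domain mostly had its summit nearest the strongest TAF3 site. The summit of the highest RNAPII peak was nearest the strongest TAF3 summit in 190 of 237 domains (80.2%, interval 74.6 to 84.7%), with a median distance of 34 bp to the nearest TAF3 summit. Where 1 RNAPII peak overlapped all TAF3 peaks the share was 81.7% of 164, and where RNAPII was separate it was 75.4% of 69. After joining TAF3 peaks under 500 bp apart it was 68.3% (interval 53.02 to 80.4%) of 41. Without joining, the distance to the nearest TAF3 summit reached 11395 bp. The RNAPII summit lay inside the H3K4me3 peak in 217 of 237 domains. Fold enrichments of TAF3 and RNAPII were computed against the same input library, which was not varied here.

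RNAPII summits marked the stronger TAF3 sites more often than the weaker. One lay within 200 bp of the strongest TAF3 summit in 175 domains (73.5%, interval 67.6 to 78.7%) and of the weakest in 78 (32.8%, interval 27.1 to 39.0%). An RNAPII peak carries a single summit in these files, so where it covers 2 TAF3 sites at most 1 of them can usually have a summit nearby. In the 150 domains with all TAF3 summits inside 1 RNAPII peak the shares were 71.3% for the strongest and 14.7% for the weakest site. In domains with separate RNAPII peaks, where each site can have a summit, the counts were 54 of 69 (78.3%, interval 67.2 to 86.4%) and 46 of 69 (66.7%, interval 54.9 to 76.6%), and these intervals overlap. Over all TAF3 peaks of domains in the width window the share was 54.6% of 238, compared with 77% of all TAF3 peaks. It was 71.2% for single TAF3 peaks in the window, a difference of -16.5 percentage points (interval -23.2 to -10.03). A single TAF3 peak does not share an RNAPII summit with a second TAF3 site of its domain, so this difference is in part built in. Its interval counts the TAF3 peaks of a domain as independent, which they are not. Without a width limit the difference was -25.2 points, and with the full TAF3 list -29.2. With TAF3 peaks under 500 bp apart joined it was -12.02 points, with an interval that included zero (-27.5 to 1.88).

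Where neighbouring TAF3 sites had their own RNAPII peaks, their order by TAF3 was mostly their order by RNAPII. The RNAPII value of a site is the highest enrichment of any RNAPII peak sharing at least 1 base with its TAF3 peak. The summit of that RNAPII peak can lie away from the TAF3 summit. By this measure RNAPII was higher at the stronger TAF3 site in 54 of 70 pairs (77.1%, interval 66.0 to 85.4%). Median RNAPII enrichments were 99.7-fold at the stronger and 70.7-fold at the weaker site. When TAF3 differed by 2-fold or more the order was shared in 25 of 26 pairs, and when it differed by less, in 29 of 44 (65.9%, interval 51.1 to 78.1%). Across these 70 pairs the log2 ratios of TAF3 and RNAPII had a Pearson correlation of 0.48 and a rank correlation of 0.60. All pairs come from the same TAF3, RNAPII and input libraries.

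**Figure D5:**
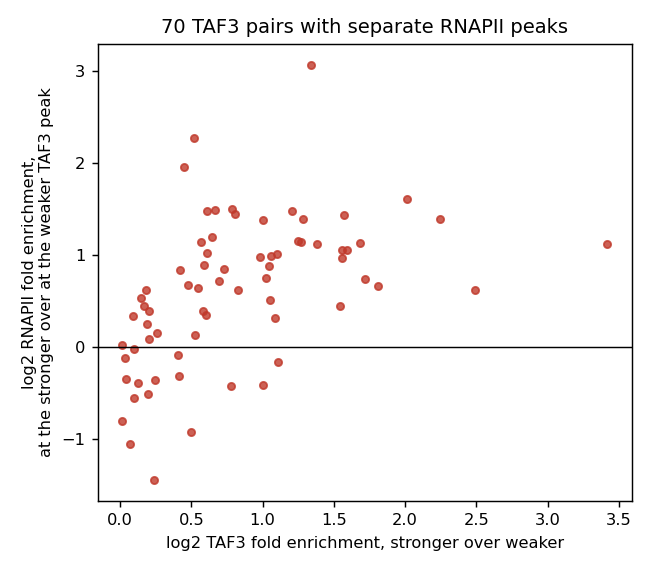
For 70 adjacent TAF3 pairs with separate RNAPII peaks, the log2 ratio of TAF3 fold enrichment, stronger over weaker (x axis), and of the fold enrichment of the RNAPII peaks overlapping the same TAF3 peaks (y axis). Points above the line at zero, 54 of 70, had the higher RNAPII peak over the stronger TAF3 peak.

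Across domains, the highest RNAPII enrichment was correlated with TAF3 of the strongest and of the weakest site. The summit of that RNAPII peak lay nearest the strongest TAF3 summit in 190 of 237 domains. The higher correlation for the strongest site is therefore in part built in. RNAPII at the weakest TAF3 peak itself was not correlated with it. The rank correlation of the highest RNAPII enrichment with TAF3 was 0.80 for the strongest and 0.51 for the weakest peak over 237 domains, and that of H3K4me3 with the strongest TAF3 peak was 0.44 over 238. These describe domains of the same libraries, which are not independent replicates, and all enrichments share the input. The strongest and the weakest TAF3 peak of a domain had a rank correlation of 0.49.

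The domains were spread over all chromosomes with TAF3-bearing H3K4me3 peaks except Y. Chromosome 19 held the most, 30 of 238, which is 3.63% of its 826 H3K4me3 peaks with TAF3 (interval 2.56 to 5.14%) compared with 2.06% over all chromosomes. On chromosome 18 the share was 8 of 162 (4.94%, interval 2.52 to 9.44%), and on chromosome 14 it was 1 of 375 (0.267%, interval 0.0471 to 1.49%). These 3 were picked as extremes after the values were seen.

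The edge of the definition was sharp in some places. The H3K4me3 peak took in the whole length of 405 of the 482 TAF3 peaks, and 26 had under 50% of their length inside. The members just inside were chr16:2478059-2479308, chr19:45349471-45351647 and chr17:79320073-79321143, whose least-overlapping TAF3 peak shared 2, 3 and 5 bases with the domain. Just outside were chr1:149224242-149225412, chr11:62605808-62608659 and chr1:87380277-87382292, where a second TAF3 peak ended or began 0, 4 and 16 bp from the H3K4me3 peak. Requiring 50% of the TAF3 peak inside left 213 domains, and requiring its summit inside left 214.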

How the data were processed

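The submitters' processing notes name CASAVA 1.8.2, MACS 1.4.2 and the build hg19; read alignment is not described in the sources used here. MACS compared each antibody with the same input at a p cutoff of 1.00e-05, kept at most 1 tag per position and took the regional background from 1000 and 10000 bp, per the file headers. In the lists the authors deposited, tags are whole-number counts per peak, fold enrichment is a linear ratio, the score is -10 log10 of the p-value, and the false discovery rate is a percent. The deposited filtered lists hold the peaks with fold enrichment above 5 and false discovery rate below 5%, which was checked against the full lists.

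Positions are counted from 1. Overlap was at least 1 base. Shares carry Wilson intervals, differences Newcombe intervals and medians order-statistic intervals, all at 95%. No p-value was computed, since there is 1 library per antibody and peaks are not replicates. Alternatives changed the overlap, the lists, the measure of strength, the width limit and the chromosomes. Named domains are extremes by number of TAF3 peaks, width, spacing, H3K4me3 and TAF3 enrichment, TAF3 ratio and RNAPII number, up to 5 each. The members and lists were chosen with earlier results of these data known. The gene annotation at hand was on GRCh38, so gene start sites, gene lists and sequence were not analysed here. Overlaps were computed in Python 3.11.15 with pandas 2.3.3 and numpy 2.4.6, checked with bedtools 2.31.1, with scipy 1.17.1 for intervals and matplotlib 3.10.9 for plots. The overlap code passed 11 of 11 checks on simulated peaks and against bedtools.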

Additional observations from a re-analysis of the deposited data

Results flagged for a closer look

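TAF3 peaks outside the authors' filter, which the counts above do not use, also lay in H3K4me3 peaks that held a filtered one. Of the 11323 H3K4me3 peaks with exactly 1 filtered TAF3 peak, 608 (5.37%, interval 4.97 to 5.80%) held a further TAF3 peak of the full list, and in the width window 221 of 2091 did (10.6%, interval 9.32 to 11.96%). These 660 further peaks had a median of 10.3-fold enrichment and 23 tags, and the highest reached 27.1-fold. Of the 238 domains with several filtered TAF3 peaks, 24 held a further one of the full list (10.1%, interval 6.87 to 14.6%).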

How the results depend on the processing

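Across the settings tried, 99 values were recomputed. Of these, 72 fell inside the interval of the value reported above (or within 1.5 times, for the number of domains) and 27 did not. Only the differences in RNAPII peak number and in RNAPII summits can change sign, and 0 of their values did. The summit difference is in part built in, as stated above. Among the 72 values inside, the RNAPII summit difference with TAF3 peaks under 500 bp apart joined was -12.02 points, and its interval included zero. With the full TAF3 list there were 1013 domains, a median summit distance of 1055 bp, a ratio of 0.405, 53.01% with the H3K4me3 summit between TAF3 summits, and differences of 16.9 points (2 or more RNAPII peaks) and -29.2 points (RNAPII summit within 200 bp). With the upper 50% of TAF3 peaks there were 44 domains, 1883 bp, a ratio of 0.710, 81.8% of pairs joined by RNAPII and 6.52 points. Joining TAF3 peaks under 100 bp apart gave 104 domains, 1846 bp, 53.8% joined and 42.8 points; under 500 bp, 41 domains, 2455 bp, 40.5% joined, 49.7 points and 68.3% with the highest RNAPII summit nearest the strongest TAF3 site. Joining RNAPII peaks under 100 bp apart gave 79.9% joined and 16.7 points, and the full RNAPII list 19.8 points. Without a width limit, and over the full width range of the domains, the summit difference was -25.2 points. The ratio of weakest to strongest TAF3 was 0.663 by tags per bp and 0.517 by tags per peak. The causes were not tested beyond what each setting does to the lists. Joining nearby peaks, adding RNAPII peaks of score 3100 or more and asking for both TAF3 summits inside the RNAPII peak were chosen after seeing the data. The count of domains with start sites of 2 or more genes was not run, for want of an annotation of the build. No paired analysis was possible because each antibody had 1 library, and no library could be left out for the same reason. With 1 tag kept per position, tag counts of dense peaks are bounded.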
